A study of Mus musculus with 6 samples.

Results

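*Nnt* and 9 genes grouped here with mitochondrial NADPH supply and use were followed in the aorta of mice with and without miRNA-26b. The genes were found by symbol in the deposited table of read counts, and all 10 were present among its 55341 rows. All 10 passed the filter on low counts, which kept 16017 genes. *Nnt* was selected on its own difference in read level between the genotypes in these same libraries, so its values are given as a description with no test. The other 9, *Idh2*, *Me2*, *Me3*, *Glud1*, *Txnrd2*, *Txn2*, *Prdx3*, *Prdx5* and *Sod2*, were taken for their role beside it.

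RNA was sequenced from 3 miRNA-26b-/- libraries (M2626, M2627 and M2628) and 3 naive miRNA-26b+/+ libraries (M2629, M2630 and M2631), at 8 weeks of age on a chow diet. The methods give 3 mice per genotype, but the labels do not tie a library to an animal, so the p-values measure the spread between these libraries. The labels give the strain C57BL/6NCrl for all 6. The paper describes the strains first set up from the chimeras as mixed 129/Sv and C57BL/6, while its methods place every mouse on C57BL/6. The knockout allele was built in 129/Sv embryonic stem cells, its selection cassette was removed with a Flp line, and the floxed miRNA-26b was then deleted with tamoxifen in CreERT2 mice, after which CreERT2 was bred out. The breeding of the wild type mice is not given in the sources used here, so differences of background between the groups cannot be told apart from the genotype. According to the methods the tissue was thoracic aorta with the arch, while the labels name endothelial cells.

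Mitochondria keep their own pool of NADPH, since the molecule does not cross the inner membrane. NNT, the nicotinamide nucleotide transhydrogenase of that membrane, uses the proton gradient to pass hydride from NADH to NADP+, and IDH2, ME3 and GLUD1 can make NADPH in the matrix. The thioredoxin reductase TXNRD2 spends NADPH to keep thioredoxin TXN2 reduced, TXN2 in turn recharges the peroxiredoxins PRDX3 and PRDX5, and these remove the hydrogen peroxide that superoxide dismutase SOD2 produces. *Nnt* is also known to geneticists as a gene that differs between substrains: C57BL/6J mice carry a deletion of several internal exons, and C57BL/6N mice do not.

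The microRNA that was deleted acts through its seed, bases 2 to 8, which pairs with sites in 3′ UTRs. The mature sequences below, from RefSeq on GRCm38.p6, show that miRNA-26b-5p and its relative miRNA-26a-5p, encoded elsewhere in the genome, share this seed (capitals), so that a site for one is a site for the other. They are shown because the seed is what a direct effect of miRNA-26b-5p on any of the 10 transcripts would use. The knockout also lacks miRNA-26b-3p, and sites for it were not searched.
mmu-miR-26b-5p: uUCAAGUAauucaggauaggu
mmu-miR-26a-5p: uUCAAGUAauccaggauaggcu

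In the longest annotated 3′ UTR of each gene, matches of 7 or 8 letters were searched on the transcript strand, namely TACTTGAA (8mer), TACTTGA (7mer pairing with bases 2 to 8) and ACTTGAA (7mer with a final A), each site counted once under its longest form. Of the 10 transcripts, 9 had none, *Nnt* with its 909 bases of 3′ UTR among them. *Sod2* held 1 site, a 7mer with a final A at position 4036 of a 3′ UTR of 4963 bases. It lies at chr17:13019199-13019221 on the forward strand of GRCm38 with the 8 bases on either side, and the capitals mark the match.
Sod2: aaggtagcACTTGAAttctagaa

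Across 21028 protein-coding genes with an annotated 3′ UTR, 18.3% had at least 1 site of these kinds and 4.18% had an 8mer, with a median 3′ UTR of 961 bases. *Sod2*, the only one of the 10 with a site, had overlapping groups (values below), and an absent match says only that these letters are not in that annotated 3′ UTR.

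*Nnt* was higher in miRNA-26b-/- mice. Its CPM (the reads of a gene scaled to the TMM-adjusted size of its library) were 85.1 in M2626, 96.7 in M2627 and 89.9 in M2628, against 27.4 in M2629, 52.1 in M2630 and 33.3 in M2631. The lowest knockout library was 1.63 times the highest wild type library, so the groups did not overlap. The means were 90.5 ± 5.81 and 37.6 ± 12.9 CPM (SD, n = 3 each), and edgeR fitted a log2 ratio of 1.28 with a standard error of 0.223. The knockout libraries lay close together, with a highest value 1.14 times the lowest, and the wild type libraries spread over 1.91 times, which is an SD of 6.42% and 34.4% of the mean. Leaving out single libraries gave log2 fold changes from 1.09 (without M2629) to 1.59 (without M2630). These values rest on raw counts of 2178 to 3243 in the knockout and 838 to 1430 in the wild type libraries.

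**Figure D1:**
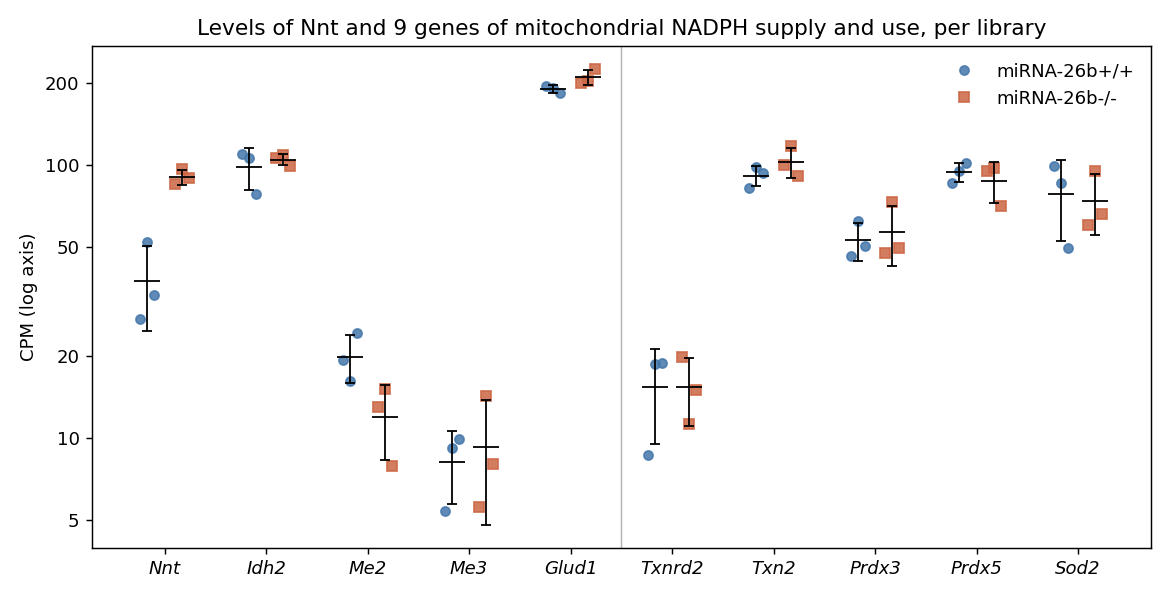
CPM on a log axis of the 10 genes in each library, blue circles for miRNA-26b+/+ and orange squares for miRNA-26b-/-, with black bars for the mean ± SD (n = 3 each). The genes grouped here as sources of NADPH stand left of the line, and those of thioredoxin and peroxide defence stand right. *Nnt* is separated between the genotypes (27.4 to 52.1 against 85.1 to 96.7 CPM), whereas the 5 genes right of the line are mixed.

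The gene lies on the reverse strand of chromosome 13 of GRCm38, from 119335448 to 119408997. The GENCODE M21 annotation gives the name *Nnt* to 2 gene identifiers at this place, ENSMUSG00000025453 and a second one that lies within it, and the authors counted by gene name, so both are summed in 1 row over 7037 bases of exon. The principal transcript has 17 exons and 3464 bases. GRCm38 is a C57BL/6J genome, so the counts can cover only exons that C57BL/6J holds, and a count per gene does not show which exons were read. The *Nnt* allele of each mouse was not tested. No other annotated gene shares exon bases with *Nnt*.

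The genes around *Nnt* were next examined. Of 55 annotated genes lying within 1 Mb, 14 were tested, and none of the 14 had an unadjusted p under 0.05 in either direction by edgeR's quasi-likelihood test, against 6.47% of all genes tested (3.4% higher and 3.07% lower in the knockout). In none of the 14 did the groups separate, against 11.5% of all genes. Their median log2 fold change was -0.13, with 6 above and 8 below 0. *Paip1*, which encodes a partner of the poly(A)-binding protein and lies 19604 bases away, had 52.9 ± 5.60 CPM in the knockout and 59.9 ± 13.6 CPM in the wild type mice (SD, n = 3 each). The nearest tested gene on the other side, *Fgf10*, a fibroblast growth factor, is 543333 bases away and had only 1.29 ± 1.13 and 2.76 ± 1.28 CPM. *Hmgcs1*, an enzyme of cholesterol synthesis and the gene with the highest level of the 14, had 91.1 ± 5.89 and 81.5 ± 14.5 CPM; it was picked after its values were seen.

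**Figure D2:**
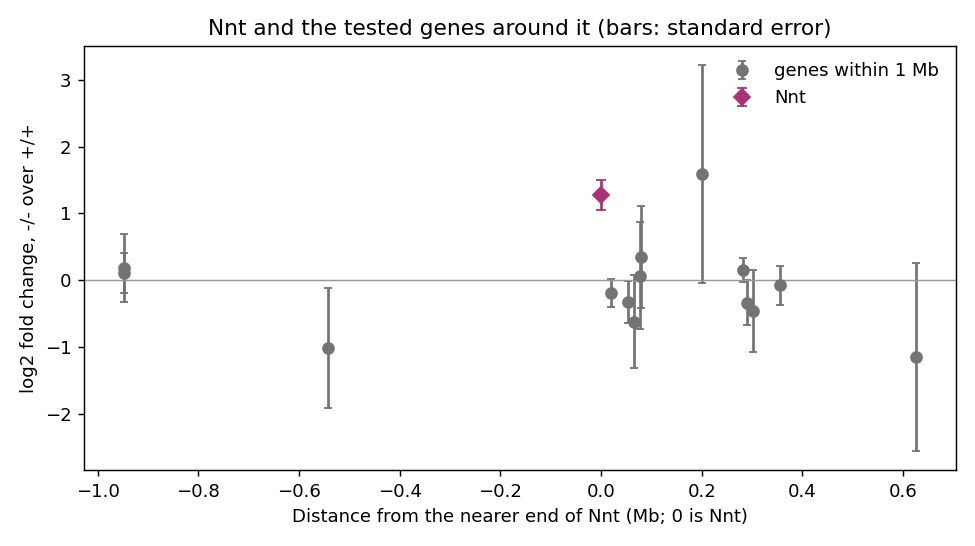
Log2 fold change (miRNA-26b-/- over miRNA-26b+/+) of *Nnt* (purple) and of the 14 tested genes within 1 Mb (grey) against the distance from the nearer end of *Nnt* in Mb, with bars for the standard error from edgeR. *Nnt* stands at 1.28, and the grey points with long bars are genes with few counts.

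Of the 4 other genes grouped here as sources, *Idh2*, *Glud1*, *Me2* and *Me3*, 1 passed an unadjusted p of 0.05. This was *Me2*, whose enzyme mainly makes NADH, and none of the 3 whose enzymes can make NADPH passed. None of the 4 passed after Benjamini-Hochberg adjustment over all genes, against 6.47% and 0.00624% of the genes tested (1036 and 1 of 16017, with 3.4% higher and 3.07% lower at the unadjusted threshold). *Idh2* encodes the NADP+-dependent isocitrate dehydrogenase of the matrix. Its CPM were 106.1, 108.5 and 99.4 in M2626 to M2628 and 110.0, 106.6 and 78.1 in M2629 to M2631. The groups overlapped. The fitted log2 ratio was 0.09 with a standard error of 0.173 and a 95% interval from -0.28 to 0.46 (edgeR, adjusted p = 0.965).

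*Glud1*, the glutamate dehydrogenase that opens glutamate to the citric acid cycle, was the most abundant of the 10 in CPM. It had 200.2, 203.1 and 225.4 CPM in the knockout and 195.6, 191.0 and 184.0 CPM in the wild type libraries. The groups did not overlap, but only just, as the lowest knockout value was 1.02 times the highest wild type value. The log2 fold change was 0.14 (standard error 0.138, 95% interval -0.15 to 0.43, adjusted p = 0.923 from edgeR).

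The malic enzymes turn malate into pyruvate; ME3 makes NADPH and ME2 mainly its relative NADH. *Me2*, on chromosome 18, differed in the direction opposite to *Nnt*. Its CPM were 12.97, 15.1 and 7.91 in the knockout and 19.3, 16.2 and 24.2 in the wild type libraries, so that the groups did not overlap, with the lowest wild type value 1.07 times the highest knockout value. The means were 11.999 ± 3.70 and 19.9 ± 4.02 CPM (SD, n = 3 each). The fitted log2 ratio was -0.72 with a standard error of 0.333. The unadjusted p was 0.0469 and the adjusted p = 0.763 with edgeR's quasi-likelihood test, so the difference did not pass over all genes. The unadjusted p was above 0.05 in 7 of 16 alternatives, up to 0.164 without M2631, while the log2 fold change stayed negative in all 16, between -0.95 and -0.50.

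*Me3* was the least abundant of the sources. It had 5.59, 14.2 and 8.01 CPM in the knockout and 5.42, 9.22 and 9.89 CPM in the wild type libraries. The fitted log2 ratio was 0.24 with a standard error of 0.456 and an adjusted p = 0.965 from edgeR. The groups overlapped over almost their whole range, and the interval from -0.73 to 1.21 does not bound its change closely, with 143 to 478 reads and an SD of 48.1% of the mean in the knockout libraries. Without M2627 its log2 fold change turned to -0.25. Its exons share 569 bases with an antisense gene, *A230065N10Rik*, and the counting did not use strand, so reads of the pair cannot be told apart.

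Among the 9 genes other than *Nnt*, the groups thus failed to overlap in 2, *Glud1* higher and *Me2* lower in the knockout, against 11.5% of all genes tested (5.65% higher and 5.88% lower). Of these 9, 5 had a log2 fold change above 0 and 4 below, with a median of 0.09, where the median over all genes tested was 0.01.

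**Figure D3:**
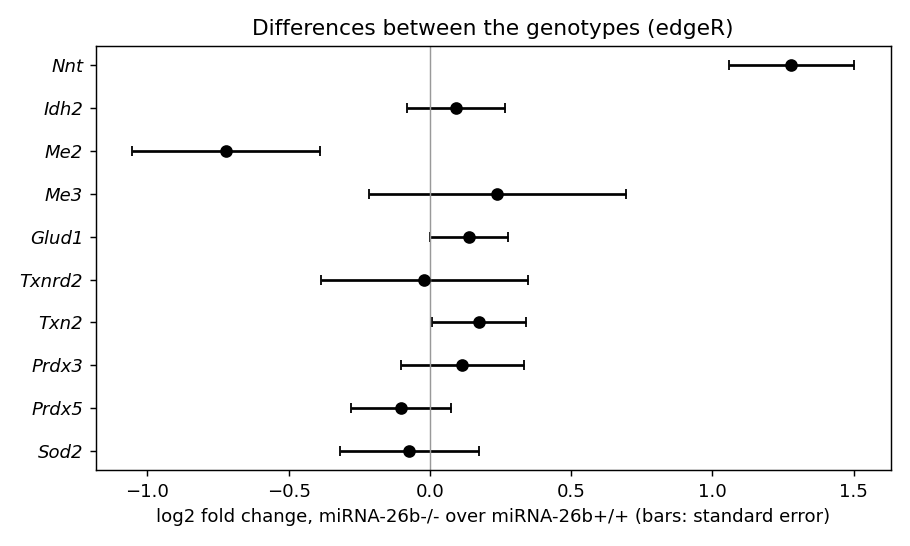
Log2 fold change of each of the 10 genes, miRNA-26b-/- over miRNA-26b+/+, from edgeR, with bars for the standard error (3 libraries per group). *Nnt* lies at 1.28 and *Me2* at -0.72, and the other 8 lie between -0.10 and 0.24.

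The sources can be set against each other only per length of transcript. Reads per kilobase per CPM unit (RPKM) were computed with the joined exon length, in which the exons of all transcripts of a gene in GENCODE M21 are merged. They were computed again with the length of the principal transcript, an alternative chosen after seeing the data. With the principal transcript, *Nnt* made up 16.3%, 17.6% and 16.8% of the summed RPKM of the 5 sources in M2626, M2627 and M2628, against 5.76%, 10.7% and 8.01% in M2629, M2630 and M2631. With the joined exon length the mean shares were 12.2% ± 0.568 and 5.81% ± 1.80 (SD, n = 3 each). *Nnt* was thus a minor part of these transcripts in either genotype, and *Idh2* and *Glud1* together were the larger part in every library.

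The sum of the 4 other sources by principal transcript was 125.9, 130.7 and 128.1 RPKM in the knockout and 129.1, 125.5 and 110.3 RPKM in the wild type libraries. These ranges overlapped. With *Nnt* added, the 5 genes summed to 154.3 ± 4.11 and 132.5 ± 11.01 RPKM (SD, n = 3 each). The share of *Me2* was 2.94% ± 0.878 in the knockout and 5.78% ± 1.68 in the wild type, and that of *Me3* was 1.33% ± 0.604 and 1.39% ± 0.482.

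**Figure D4:**
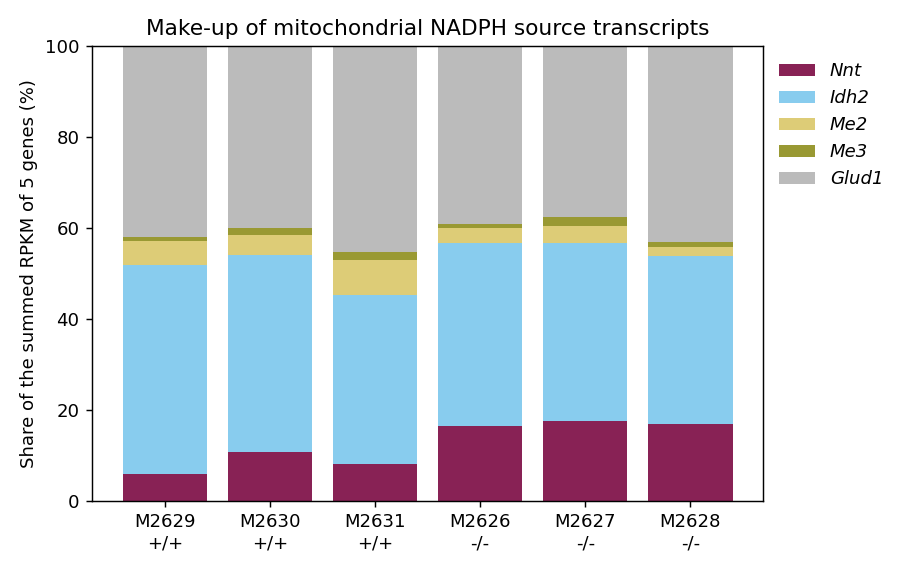
Share of each gene in the summed RPKM (principal transcript length) of *Nnt*, *Idh2*, *Me2*, *Me3* and *Glud1*, as a stacked bar of 100% per library, wild type at left and knockout at right. The *Nnt* segment is 5.76% to 10.7% in the wild type and 16.3% to 17.6% in the knockout libraries.

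The order of levels per length in wild type mice began with *Prdx5* at 74.7 ± 6.11 RPKM by principal transcript, followed by *Idh2* at 56.2 ± 10.02 and *Glud1* at 56.0 ± 1.71 RPKM (SD, n = 3). By this length *Idh2* and *Glud1* did not differ beyond their spread. *Txn2* at 44.5 ± 3.81 and *Prdx3* at 35.8 ± 5.61 RPKM came next, with ranges that overlapped. *Sod2* at 13.4 ± 4.39 and *Nnt* at 10.8 ± 3.72 RPKM followed and also overlapped. *Me2* (7.54 ± 1.52 RPKM) overlapped both *Nnt* and *Txnrd2* (5.36 ± 2.04 RPKM), and *Me3* (1.82 ± 0.538 RPKM) was lowest, below every value of *Txnrd2*.

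In the knockout mice *Nnt*, at 26.1 ± 1.67 RPKM, stood above *Sod2* at 12.6 ± 3.19 RPKM, and its range no longer overlapped that of *Sod2*. With the joined exon length *Glud1* stood first in place of *Prdx5* (45.1 ± 1.38 against 44.1 ± 3.60 RPKM in wild type). *Glud1* then also lay above every wild type value of *Idh2* (37.9 ± 6.75 RPKM). *Prdx3* (35.8 ± 5.61 RPKM) lay above every wild type value of *Txn2* (21.7 ± 1.85 RPKM). *Txnrd2* (3.50 ± 1.33 RPKM) came before *Me2* (2.74 ± 0.554 RPKM), with ranges that overlapped. The order thus depends on the length used. *Nnt* was 7th of 10 in wild type and 6th in knockout mice by either length.

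The 5 genes followed for mitochondrial thioredoxin and peroxide defence did not separate between the genotypes. Of the 5, *Txnrd2*, *Txn2*, *Prdx3*, *Prdx5* and *Sod2*, none had an unadjusted p under 0.05 with edgeR, and in all 5 the groups overlapped. *Txnrd2*, the selenoprotein that reduces mitochondrial thioredoxin, had 19.9, 11.3 and 15.0 CPM in the knockout and 8.65, 18.7 and 18.9 CPM in the wild type libraries. Its means were nearly equal, 15.4 ± 4.32 and 15.4 ± 5.86 CPM (SD, n = 3 each), and the 95% interval of the log2 fold change ran from -0.80 to 0.76.

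*Txn2* encodes the mitochondrial thioredoxin. It had 99.8, 117.2 and 91.3 CPM in the knockout and 82.8, 98.1 and 93.2 CPM in the wild type libraries, with M2627 highest. The log2 fold change was 0.17 (standard error 0.167, 95% interval -0.18 to 0.53, adjusted p = 0.917 from edgeR), and it stayed above 0 in all 16 alternatives.

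*Prdx3*, a mitochondrial peroxidase, had 47.5, 73.1 and 49.7 CPM in the knockout and 46.4, 62.3 and 50.4 CPM in the wild type libraries. M2627 and M2630 were the highest of their groups, and the other 4 lay within 46.4 to 50.4 CPM. The log2 fold change was 0.11 (95% interval -0.35 to 0.58, adjusted p = 0.965 from edgeR) and -0.12 without M2627.

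*Prdx5*, which is also found in peroxisomes and the cytosol, had 95.5, 97.4 and 70.6 CPM in the knockout and 86.3, 95.4 and 101.6 CPM in the wild type libraries. M2628 stood below the rest, and without it the log2 fold change went from -0.10 to 0.03 (95% interval with all libraries -0.48 to 0.27, adjusted p = 0.960 from edgeR). Its exons share 409 bases with *Trmt112* on the opposite strand, which had 18.2 ± 5.11 CPM in the knockout and 24.6 ± 2.77 CPM in the wild type libraries without overlap.

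*Sod2* needs no NADPH itself and makes the peroxide that the peroxiredoxins remove. It had 60.3, 95.4 and 66.5 CPM in the knockout and 99.5, 86.2 and 49.8 CPM in the wild type libraries. Both the lowest and the highest of the 6 values were from wild type libraries, and the groups overlapped. The log2 fold change was -0.07 (standard error 0.246, 95% interval -0.60 to 0.45, adjusted p = 0.988 from edgeR).

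Wider lists of the pathway were described in the same way, again without a test of the list. Besides the 10 genes, 4 sources of mitochondrial NADPH were tested (*Nadk2*, which makes NADP+ in mitochondria, and the folate enzymes *Mthfd2*, *Mthfd2l* and *Aldh1l2*), 6 genes of thioredoxin and glutathione defence, 8 other mitochondrial users of 9 listed (1 name was not found in the table), 7 cytosolic sources, 9 cytosolic defence genes and 17 enzymes of the tricarboxylic acid cycle. Of all these genes, 1 had an unadjusted p under 0.05 and none an adjusted one, against 6.47% and 0.00624% of all genes.

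The exception was *Txn1*, the cytosolic thioredoxin and counterpart of *Txn2*. It had 155.1, 138.1 and 115.6 CPM in the knockout and 115.0, 94.6 and 98.2 CPM in the wild type libraries, with groups that did not overlap, though M2628 and M2629 almost met. Its log2 fold change was 0.41 (standard error 0.167, unadjusted p = 0.0277, adjusted p = 0.736 from edgeR), and it ran from 0.30 to 0.51 with each library left out, with an unadjusted p above 0.05 without M2626, M2627, M2630 or M2631 and up to 0.110 without M2626. The cytosolic defence genes as a list had a median log2 fold change of 0.06, with 7 of 9 above 0. This median was -0.0118 without M2626, 0.0286 without M2627 and 0.240 without M2628.

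The gene with the smallest p stood for each list without a call. Of the folate and NADP+ genes it was *Aldh1l2*, a folate enzyme that makes NADPH (16.6 ± 0.134 and 22.2 ± 7.79 CPM, log2 fold change -0.43, adjusted p = 0.860 from edgeR). Of the defence genes it was *Msrb2*, a methionine sulfoxide reductase (10.98 ± 7.22 and 6.04 ± 1.27 CPM, 0.90, adjusted p = 0.813 from edgeR), whose knockout values ran from 4.04 CPM in M2628 to 18.5 in M2627. It was *Mecr*, of mitochondrial fatty acid synthesis, among the other users (14.1 ± 7.52 and 22.2 ± 7.14 CPM, -0.62, adjusted p = 0.837 from edgeR), and *Mthfd1*, a folate enzyme, among the cytosolic sources (31.4 ± 6.36 and 40.0 ± 3.08 CPM, -0.35, adjusted p = 0.845 from edgeR).

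The tricarboxylic acid cycle supplies the substrate of IDH2. Its enzymes had values below 0 in 15 of 17 genes, where 7789 of all 16017 genes were below 0. Their median log2 fold change was -0.11, with a range from -0.36 to 0.20. None of the 17 passed, the smallest unadjusted p being 0.156 for *Sdhb*, a subunit of succinate dehydrogenase, from edgeR. Their summed level was 2447, 3246 and 1891 CPM in the knockout and 2906, 3287 and 2274 CPM in the wild type libraries, so the groups overlapped. The direction rested on M2628, without which the list's median was 0.0536, and it was -0.0130 without M2630 and -0.311 without M2627. Within each genotype the sum was highest in M2627 and M2630, where *Nnt* was highest too (96.7 and 52.1 CPM), and lowest in M2628 and M2631, where *Nnt* was neither highest nor lowest (89.9 and 33.3 CPM).

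**Figure D5:**
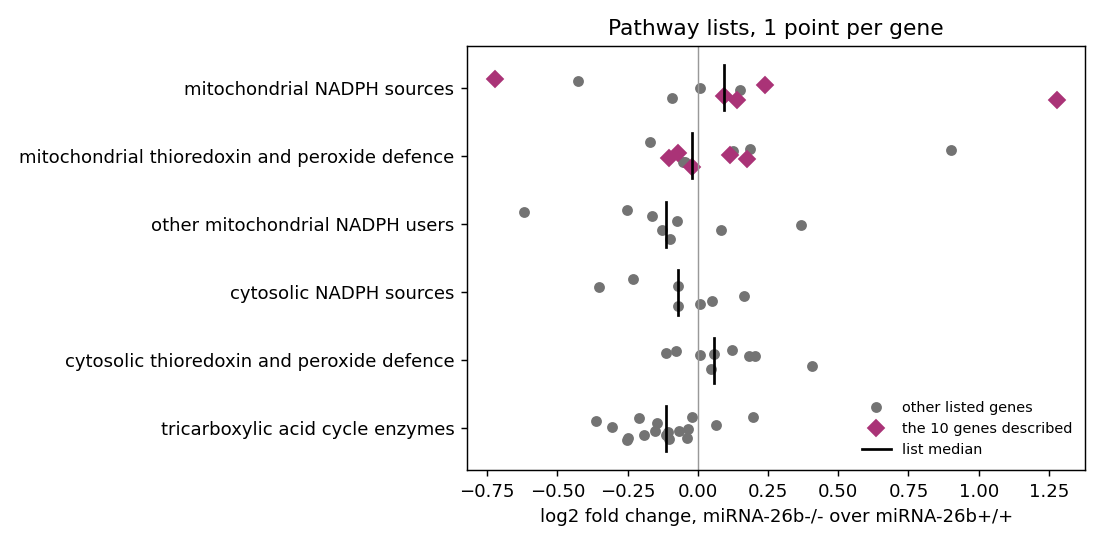
Log2 fold change (miRNA-26b-/- over miRNA-26b+/+, edgeR) of every tested gene of 6 pathway lists, 1 point per gene, purple diamonds for the 10 genes described and black lines for the list medians; the vertical placement within a list is arbitrary. *Nnt* at 1.28 is the highest point and *Me2* at -0.72 the lowest, and 15 of 17 cycle enzymes lie left of 0.

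In a whole vessel, fewer cells of a type and less RNA per cell cannot be told apart. Against the label of endothelial cells, 7 smooth muscle markers summed to 33418 to 45432 CPM and 7 endothelial markers to 445 to 1676 CPM. The endothelial sum was 445.0 in M2626 and 465.3 in M2627, below the other 4 libraries (1177 and more). All 7 endothelial markers had log2 fold changes below 0, 1 of them with an unadjusted p under 0.05 from edgeR. Of all genes tested, 7789 of 16017 were below 0, and 3.07% were lower in the knockout at that threshold. *Nnt* was 89.9 CPM in M2628, where the endothelial sum was 1676 CPM. The Schwann cell markers, 5 in number with 4 tested, summed to 104.1 to 167.3 CPM in the knockout and 32.4 to 66.8 CPM in the wild type libraries, the only one of 11 marker lists without overlap (11.5% of all single genes did not overlap). All 4 tested had an unadjusted p under 0.05 and a higher level in the knockout, as did 4 of 5 skeletal muscle and 2 of 5 sympathetic neuron markers, against 3.4% of all genes. The skeletal muscle sums overlapped (8.40 to 68.9 CPM in the knockout and 3.24 to 11.2 CPM in the wild type libraries), as did the sympathetic ones (9.26 to 241.7 and 11.3 to 54.3 CPM). The part of these cells in the difference of *Nnt* was not tested.

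Brown adipocytes are rich in mitochondria, and perivascular fat surrounds the aorta. The 5 brown fat markers, none of which was at 0 in all libraries, summed to 83.0 to 408.9 CPM in the knockout and 83.8 to 287.8 CPM in the wild type mice, highest in M2627 and next in M2630. These are the libraries in which *Prdx3* was highest. The 6 white fat markers were highest in the same pair, at 1727 and 1250 CPM. *Nnt* was likewise highest of its genotype in M2627 (96.7 CPM) and M2630 (52.1 CPM). In the libraries with the least brown fat signal, M2628 and M2631, it was 89.9 and 33.3 CPM. M2627 was also the highest of all for *Txn2* and *Me3*, and it held the most sympathetic neuron (241.7 CPM) and heart muscle markers (293.2 CPM). The heart muscle sum was high in M2630 as well (265.8 CPM). The part of fat, muscle or nerve in these levels was not tested.

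Finally, the genes whose pattern was most like that of *Nnt* were listed by Pearson's r of log2 CPM over the 6 libraries, among 11680 genes with a mean of at least 5 CPM. As *Nnt* differs between the genotypes, this order favours genes that do so too, and the values are a description. The 5 highest were *Ptch1* (r = 0.977), the receptor of hedgehog ligands, *Pdgfrb* (0.965), a growth factor receptor of mural cells, the zinc finger gene *Gzf1* (0.963), *Gk5* (0.961) and the antisense transcript *Gm15564* (0.961). *Ptch1* had 53.3, 54.0 and 50.2 CPM in the knockout and 31.3, 38.1 and 29.7 CPM in the wild type libraries, with M2630 highest among the wild type as for *Nnt*. *Gm15564*, with 185.5 ± 6.22 and 75.5 ± 10.6 CPM (SD, n = 3 each), is the 1 gene of all tested with an adjusted p under 0.05. Of the 9 other genes of mitochondrial NADPH, the nearest were *Txn2* (0.700, rank 680) and *Glud1* (0.680, rank 779), and *Me2* was opposed (-0.765).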

How the data were processed

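Aortic RNA of 3 miRNA-26b-/- and 3 miRNA-26b+/+ mice was analysed, grouped by the genotype in the labels. The authors aligned reads with STAR to GRCm38 and deposited counts per gene name from featureCounts 1.6.4 over the exons of GENCODE M21 (the methods name M23), ignoring strand and assigning a read that overlaps more than 1 gene to each of them. They also deposited log2 CPM of 16340 genes with the same counts (0 values differed), whose columns of fold changes and p-values were not used. Libraries held 25706728 to 33345037 counts, so 3 counts are 0.0894 to 0.117 CPM. Intervals cover the spread between libraries and floors cover counting error only, since there were no molecular identifiers.

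The filter asked for 2 or more counts in total and for over 1 CPM in 2 or more libraries. TMM scaling was followed by edgeR's quasi-likelihood test (edgeR 4.0.16, R 4.3.3; prior count 0.125; Benjamini-Hochberg adjustment). 95% intervals used the test's degrees of freedom. An exact permutation test of 3 against 3 libraries cannot go below p = 0.1. The procedure was tested on simulated data. Genes named are the 10, from each pathway list those with an unadjusted p under 0.05 or else the smallest, the 5 most like *Nnt*, and the nearest genes. The members and lists were chosen with earlier results of these data known. Alternatives were the scaling, DESeq2 1.42.0, limma 3.58.1 voom, robust shrinkage, the filter, another prior count and the omission of single libraries, and, chosen after seeing the data, edgeR's earlier quasi-likelihood method and the gene length. The earlier method was the one fitted first here (0 genes with an adjusted p under 0.05, 802 unadjusted), and the newer one (1 and 1036) was made the main test after both had been seen, to keep the processing of an earlier analysis of these data. No pair of libraries looked like 1 library deposited again (at most 2.38% of tested genes with equal counts).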

Additional observations from a re-analysis of the deposited data

How the results depend on the processing

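*Nnt* kept its direction in all 16 alternatives (log2 fold change 1.09 to 1.59), as did *Glud1*, *Txn2* and *Me2*, and none of the 9 other genes had an adjusted p under 0.05 in any. *Nnt* was selected on its difference between the genotypes, and the groups of *Nnt*, *Glud1* and *Me2* did not overlap. The signs of these genes could therefore hardly turn when a library was left out. The number of genes with an adjusted p under 0.05, 1 with edgeR, was 57 with DESeq2, 3 with limma voom and with robust shrinkage, 0 with edgeR's earlier method (802 at an unadjusted p under 0.05), and 0 to 82 with each library left out. The number at an unadjusted p under 0.05, 1036, ran from 686 without M2631 to 1692 without M2628. More of these were lower than higher with limma voom (365 of 847 higher), without M2627 (425 of 898), M2628 (788 of 1692) and M2629 (407 of 838). *Me2*, the 1 of 9 at that threshold, was above it (0 of 9) with library size scaling, DESeq2 and filterByExpr, and 0 to 1 genes passed with each library left out. The sign turned, each time with an adjusted p of 0.970 or more, for *Idh2* without M2631 (-0.0573), for *Me3* (-0.25) and *Prdx3* (-0.12) without M2627, for *Prdx5* without M2628 (0.0317), for *Sod2* without M2626 (0.0482), M2628 (0.0059), M2629 (0.14) and M2630 (0.0018), and for *Txnrd2* with DESeq2 (0.0035) and limma voom (0.0251) and without M2627 (0.18), M2630 (0.14) and M2631 (0.16); the cause was not tested. With each library left out the log2 fold changes ran from -0.0573 to 0.18 for *Idh2*, -0.25 to 0.48 for *Me3*, -0.31 to 0.18 for *Txnrd2*, -0.12 to 0.25 for *Prdx3*, -0.19 to 0.0317 for *Prdx5* and -0.33 to 0.14 for *Sod2*, and the median of the 9 mitochondrial sources, 0.09, from -0.0147 (without M2627) to 0.148. The medians of the other lists ran from -0.311 to 0.0536 for the tricarboxylic acid cycle, -0.0118 to 0.240 for cytosolic defence, -0.0945 to 0.133 for mitochondrial defence (members included) and -0.314 to 0.142 for cytosolic sources. For the other mitochondrial users the median, -0.114, stayed below 0, between -0.182 and -0.0986. No paired analysis was possible because the labels give no replicate numbers, and the column headers of the log2 table, which use the number 2 for both M2627 and M2628, tie no number to a litter, batch or day. *Me3*, *Me2* and *Txnrd2* had the fewest counts (143 to 731 per library) and an SD between libraries of 20.2% to 48.1% of the mean.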
